A study of Mus musculus with 6 samples.

Results

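The table of this series holds 2 kinds of features: 22036 genes with an Ensembl identifier, and 4518 loci that carry only the name newGene and a number. They are read here as transcribed stretches added by read assembly, from that name and the assembly tool among the submitters' processing notes; no source used here describes how they were made. The loci described here are the 2282 of those 4518 that held 30 or more counts summed over the 6 libraries, of 26554 features in all. RNA came from the VPL/VPM, the ventral posterior nuclei that relay touch and pain through the thalamus, of C57 mice, genotype WT in every library. In 3 libraries the right VPL/VPM had received 0.01 U of type IV collagenase in 10 nL, and in the other 3 libraries 10 nL of saline, 14 days before the tissue was taken. Collagenase opens the wall of small vessels, and its injection is used as a model of haemorrhagic stroke and of the pain that can follow it. Whether a library is 1 animal or a pool is not stated, so p-values measure the spread between these libraries, which may be technical. Poly(A) RNA was sequenced, with 33603076 to 44815451 counts per library.

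Transcript assembly from aligned reads joins reads that overlap or share a splice junction, and a stretch of reads that matches no gene of the supplied annotation is given a new locus number. Such loci can be long noncoding RNAs, transcribed pseudogenes, copies of retroviruses and transposons, extensions of known genes, or gene segments that an annotation leaves out. Immunoglobulin genes are a special case: variable, diversity and joining segments lie apart in the genome and are joined only in B lymphocytes, and plasma cells then transcribe the joined gene with its constant region at a very high level.

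The gene list of the table decided what counted as a new locus. It held a row for 21914 of the 22028 protein-coding genes of GENCODE M21, a mouse annotation of the build GRCm38. By contrast, 2 of 5854 lincRNA genes, 1 of 2959 antisense genes, 5 of 218 immunoglobulin variable genes, 1 of 13 immunoglobulin constant genes and 0 of 144 T-cell receptor variable genes had one. The loci are therefore outside this gene list; whether they lie outside other annotations could not be examined for most, since they have no position. Of the 2282 loci, 292 carried a gene symbol in their text. For 94 of these the symbol had its own row in the table, for 102 it was a GENCODE gene with no row, and for 96 it was neither. The 102 included 26 lincRNA genes, 24 processed transcripts, 14 immunoglobulin variable genes and 10 antisense genes. The symbol is the best match the table lists for the locus, not a position, and the table gives no coordinate, strand or sequence for a locus.

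Immunoglobulin loci made up 5 of the 13 loci that passed the test below, so the reference sequence of 1 variable gene per chain is shown here. Each is the gene that the text of a locus names: Ighv3-6 for newGene_6246 (heavy chain), Igkv6-32 for newGene_3349 (kappa chain, past the threshold) and Iglv1 for newGene_7522 (lambda chain). In GRCm38, GENCODE M21 places Ighv3-6 at chr12:114288152-114288582, Igkv6-32 at chr6:70074024-70074603 and Iglv1 at chr16:19085017-19085500, all on the minus strand. The letters are the last 300 coding bases of the germline gene, 5′ to 3′, taken from the reference and not from the reads of any library. Capitals mark the last in-frame cysteine codon, which leaves 8, 23 and 24 coding bases after it. Variable domains carry a conserved cysteine next to the stretch where the following segment is joined.
Ighv3-6: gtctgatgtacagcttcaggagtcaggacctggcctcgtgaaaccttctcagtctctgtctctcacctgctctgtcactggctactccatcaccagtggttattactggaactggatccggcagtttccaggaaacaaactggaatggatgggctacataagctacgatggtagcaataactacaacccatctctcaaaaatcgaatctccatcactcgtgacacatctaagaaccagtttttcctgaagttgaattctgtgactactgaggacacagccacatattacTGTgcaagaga
Igkv6-32: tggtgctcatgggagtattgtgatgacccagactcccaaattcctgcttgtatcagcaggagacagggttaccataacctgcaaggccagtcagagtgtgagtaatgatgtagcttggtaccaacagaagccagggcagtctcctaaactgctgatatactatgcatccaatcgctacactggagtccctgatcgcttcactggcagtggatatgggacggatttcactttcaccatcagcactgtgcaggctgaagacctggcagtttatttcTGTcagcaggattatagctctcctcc
Iglv1: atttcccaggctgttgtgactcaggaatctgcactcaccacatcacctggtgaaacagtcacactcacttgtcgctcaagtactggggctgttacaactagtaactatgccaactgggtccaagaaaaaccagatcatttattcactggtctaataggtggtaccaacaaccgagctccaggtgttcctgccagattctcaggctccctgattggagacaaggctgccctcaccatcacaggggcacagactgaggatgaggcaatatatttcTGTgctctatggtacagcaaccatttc

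The new loci were mostly short and weakly transcribed. Their median sum was 142.5 counts, their median deposited FPKM (a level per length and per library size) was 0.4294, and their median length, worked out from the deposited counts and FPKM, was 1707 bases. The same medians for the 16136 Ensembl-identified genes with 30 or more counts were 6.219 FPKM and 3000 bases. Counts were present in all 6 libraries for 1986 of the 2282 loci, and 11 loci had at least 80% of their counts in 1 library. At the count minimum, the 248 loci with 30 to 39 counts had a median mean level of 0.144 CPM (counts scaled by library size), and the 313 loci with 20 to 29 counts had 0.103 CPM. A filter on low counts left 1721 loci to test. The 561 that did not pass it had sums of 30 to 167 counts, and 22 of them were at 0 in all saline libraries.

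As a share of each library, the 2282 loci took 1.061%, 1.121% and 0.9895% of the counts in saline and 1.089%, 1.158% and 1.089% after collagenase. The groups overlapped, and the means, 1.057% ± 0.0659 and 1.112% ± 0.0399 (SD, n = 3 each), did not differ beyond the spread (exact permutation test, two-sided, p = 0.4; 3 against 3 cannot go below 0.1). The 331 loci with text in the KEGG pathway or GO columns took 0.1977%, 0.2037% and 0.2026% in saline and 0.2238%, 0.2182% and 0.2196% after collagenase. Here every collagenase library lay above every saline library, which gives the smallest p the exact permutation test allows, 0.1. The 29 immunoglobulin loci, all but newGene_7522 in this set, held 451, 340 and 473 counts in saline and 5885, 2209 and 4791 after collagenase. Most of them reached the count minimum only through the collagenase libraries. Their part in the rise was not tested.

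**Figure D1:**
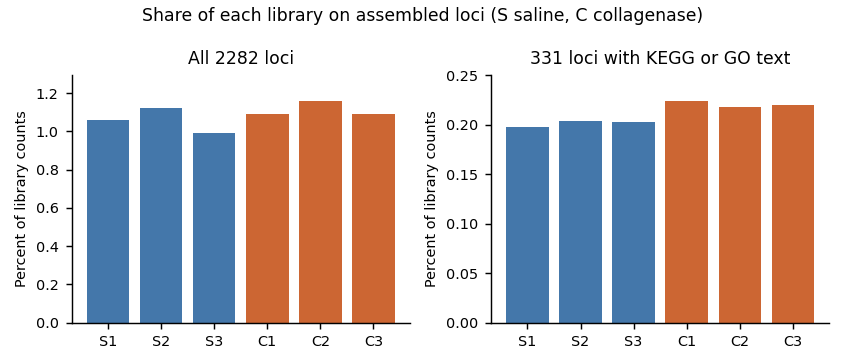
Percent of each library's counts on all 2282 assembled loci (left) and on the 331 with KEGG or GO text (right), 1 bar per library, axes from 0. The saline and collagenase bars overlap on the left; on the right the 3 collagenase bars, 0.2182% to 0.2238%, stand above the 3 saline bars, 0.1977% to 0.2037%.

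Of the 1721 loci tested, 13 passed an adjusted p of 0.05 (edgeR quasi-likelihood test, Benjamini-Hochberg over all 17240 features), which is 0.755%. The share was 2.41% of all features tested and 2.6% of Ensembl-identified genes. The 12 higher after collagenase were 0.697% of the loci, against 2.12% of all features and 2.28% of Ensembl-identified genes. The 1 lower was 0.0581%, against 0.29% and 0.316%. At an unadjusted p under 0.05 there were 109 loci, 6.33%, against 12.7% of Ensembl-identified genes, and the groups did not overlap in 237 loci, 13.8%, against 17.6% of all features and 18.1% of Ensembl-identified genes. The median log2 fold change was -0.03 over the loci and -0.02 over all features. By level, 4 of 844 loci under a mean log2 CPM of 0 passed (0.474%), against 3.66% of Ensembl-identified genes in that range. From 0 to 2 the shares were 0.551% and 5.56%, and at 2 or more they were 1.8% (6 of 333) and 2.03%. The number of loci past the threshold moved with single libraries. Leaving out saline replicate 1 gave 4 and leaving out saline replicate 3 gave 33, while collagenase replicate 1 or collagenase replicate 2 left out gave 7 each. DESeq2 called 24 loci, among them all 13. Saline replicate 3 also stood apart in markers of neighbouring tissue: striatal markers summed to 600.5 CPM there, against 105.0 to 205.7 CPM in saline replicates 1 and 2 and collagenase replicate 1, and 88.83 and 99.15 CPM in the other two. Markers of hippocampus and cortex summed to 554.3 to 629.4 CPM in saline and 356.6 to 379.3 CPM after collagenase, with 1 of 7 lower. Choroid plexus and ependyma markers summed to 44.14 CPM in saline replicate 3 and 40.27 CPM in collagenase replicate 3, against 916.8 to 2549 CPM in the other libraries. Most of the larger sums was Ttr, at 12.91 and 10.21 CPM against 847 to 2382 CPM, and Kl, Folr1 and Kcnj13 were low likewise. Foxj1 and Ccdc153 of this list were not low there. Foxj1 was at 21.38 and 18.29 CPM against 11.9 to 23.84 CPM, and Ccdc153 at 6.717 and 6.53 CPM against 1.371 to 6.785 CPM. Habenula markers were at 16.36 and 16.58 CPM in saline replicates 1 and 2, against 54.44 to 176.8 CPM elsewhere. The part of neighbouring tissue in these counts was not tested.

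**Figure D2:**
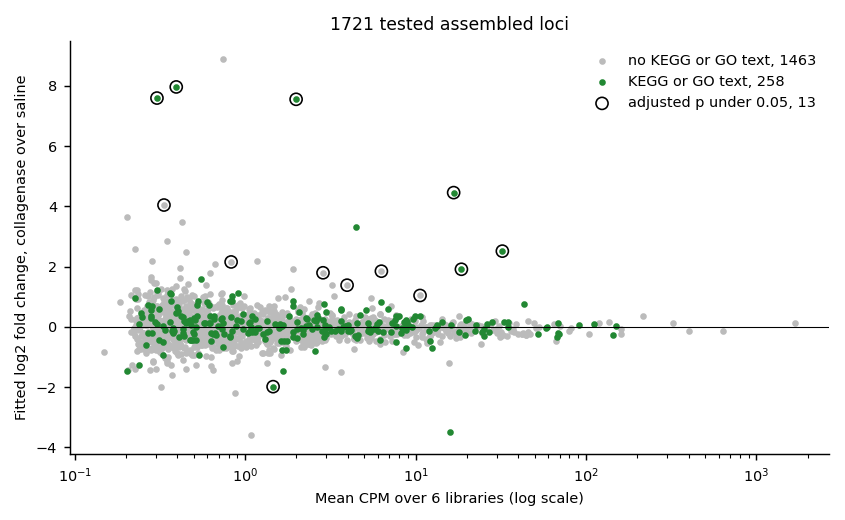
Each point is 1 of the 1721 tested loci, at its mean CPM over 6 libraries (log axis) and its fitted log2 fold change, collagenase over saline. Green points have KEGG or GO text and grey points do not; circles mark the 13 loci past an adjusted p of 0.05, 12 of them above 0. Fitted values near 8 belong to loci at or near 0 in saline and are no measure of size.

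Loci with and without text were then set side by side. Of the 331 with KEGG or GO text, 258 were tested and 7 passed, 6 higher and 1 lower (2.71%; median log2 fold change 0.03). Of the 1951 without it, 1463 were tested and 6 passed, all higher (0.41%; median -0.04). The difference between the shares was not tested. The 28 immunoglobulin loci with such text supplied 5 of the 7: among the other 303 loci with KEGG or GO text, 253 were tested, 1 was higher and 1 lower (0.791%). Of the 5, newGene_6279, newGene_3349 and newGene_6227 passed the filter only through the collagenase libraries where they were high. None of the 6 loci that passed without KEGG or GO text had text in any other annotation column either. Without saline replicate 1 the counts were 3 with text and 1 without, and without saline replicate 3 they were 14 and 19. Without collagenase replicates 1, 2 and 3 they were 3, 4 and 4 with text, and without collagenase replicate 2 it was 3 without text. DESeq2 called 10 and 14. Loci with text had a higher median deposited level, 0.5752 FPKM against 0.4079.

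Immunoglobulin loci supplied 5 of the 12 loci that rose. They were grouped by their Swiss-Prot text after values had been seen, and there were 29 of them: 3 heavy-chain constant, 7 heavy-chain variable, 18 kappa and 1 lambda. Together they held 10.16, 9.891 and 13.87 CPM in the saline libraries and 123.6, 59.39 and 124.1 CPM in the collagenase libraries. All 3 collagenase libraries lay far above the saline libraries, and collagenase replicate 2 was the lowest of them. By number, 28, 19 and 28 of the 29 loci had counts in the collagenase libraries, against 4, 4 and 3 in saline. No saline library held a count for 24 of the 29. These reached the count minimum only through the collagenase libraries, so this contrast is a description and no support. Without newGene_6226, the most abundant, the other 28 summed to 1.082, 0.7854 and 3.256 CPM in saline and 54.53, 25.7 and 62.01 CPM after collagenase. Of the 29, 6 were tested and 5 passed, all higher (83.3%, against 2.41% of all features tested). Of these 6, newGene_6279, newGene_3349, newGene_7522 and newGene_6227 passed the filter only through the collagenase libraries where they were high. The share is therefore a description and no support, and it cannot be weighed against the 2.41%. The filter was applied anew in each fit that left out 1 library, so the number tested changed too. Past the threshold were 2 of 19 tested without saline replicate 1 and 8 of 19 without saline replicate 3. Without collagenase replicate 1 it was 2 of 7, and without collagenase replicate 3 it was 3 of 7. In bulk tissue, more cells of a type and more RNA per cell cannot be told apart.

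The heavy-chain constant regions give an antibody its class. newGene_6226, whose text is the constant region of mu, the class made by B cells before they switch, was at 9.08, 9.105 and 10.62 CPM in saline and at 69.09, 33.69 and 62.14 CPM after collagenase. It rose by 2.52 ± 0.26 (log2 fold change ± SE, n = 3 each; edgeR adjusted p = 0.00371) and passed in all 6 fits that left out 1 library. Its deposited counts and FPKM imply lengths that differ 1.787-fold between libraries. newGene_6227, the gamma-2B constant region of class-switched antibody, had 0, 2 and 0 counts in saline and 178, 84 and 227 after collagenase. It rose 224-fold (95% interval from counting error alone 61.6 to 1850, edgeR adjusted p = 0.00315) and also passed in all 6 of those fits. The locus reached the count minimum and the filter only through the collagenase libraries where it was high. Its call and these fits are therefore a description and no support. The delta constant region, newGene_6228, had 9, 7 and 7 counts in saline against 17, 8 and 25 after collagenase and was under the filter. In CPM its groups did not overlap, at 0.2028, 0.2036 and 0.2053 against 0.3571, 0.2151 and 0.6478. Collagenase replicate 2 lay barely above saline, and the difference was not tested.

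Light chains pair with the heavy chain in every antibody. newGene_3324, with a kappa text and a constant-type (C1-set) domain, was at 0.8337, 0.5236 and 3.05 CPM in saline and at 33.67, 18.9 and 43.33 CPM after collagenase. The lowest collagenase library stood well above the highest saline library, replicate 3, and the locus rose by 4.46 ± 0.70 on the log2 scale (edgeR adjusted p = 0.0342). Of the 6 fits that left out 1 library, only the one without saline replicate 3 kept its call; the adjusted p ran from 0.00988 to 0.145. With no filter on low counts it was 0.0968. newGene_3349, named Igkv6-32, had 0 counts in all saline libraries and 45, 22 and 11 after collagenase. Against the limit that 3 counts over the saline group set, 0.0266 CPM, this was at least 22.8-fold higher (edgeR adjusted p = 0.0312). newGene_3349, like newGene_7522 below, reached the count minimum and the filter only through the collagenase libraries where it was high. Its call is therefore a description and no support. Leaving out saline replicate 1 or any of the 3 collagenase replicates ended this call, with an adjusted p of up to 0.117. newGene_7522, named Iglv1 and the only lambda locus, had 0, 0 and 0 counts against 144, 12 and 42, at least 55.6-fold higher, and did not pass (edgeR adjusted p = 0.0768). Its collagenase libraries differed 12 to 144 among themselves. Iglc2, a lambda constant gene with its own row, had 0, 0 and 0 counts in saline and 3, 9 and 13 after collagenase.

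Variable loci recognise antigen, and each B-cell clone transcribes 1 heavy and 1 light variable gene. newGene_6279, a heavy-chain variable locus of the VH558 text, had 0 counts in every saline library and 53, 34 and 13 after collagenase, at least 29.6-fold higher (edgeR adjusted p = 0.0256). Without saline replicate 1, collagenase replicate 1 or collagenase replicate 2 it missed the threshold, with an adjusted p of up to 0.1. Ighv3-6, the heavy gene printed above, names newGene_6246, which had 0, 0 and 0 counts against 55, 9 and 22 and was under the filter. Loci at 0 in saline, newGene_6279, newGene_3349 and newGene_7522 among them, reached the count minimum and the filter only through the collagenase libraries where they were high, so their calls and shares are a description and no support. In all, 24 of the 29 immunoglobulin loci had no count in any saline library, with sums of 31 to 198. Of the 24, 13 had counts in every collagenase library, 3 were tested and 2 passed. Among all 2282 loci, 25 were at 0 in all saline libraries (1.1%, against 0.288% of all features and 0.174% of Ensembl-identified genes with 30 or more counts), and 24 of the 25 were immunoglobulin loci. The other, newGene_4808, had 128 counts, all in collagenase replicate 2. In the opposite direction 1 locus was at 0 in all collagenase libraries, 0.0438%, against 0.0163% of all features and 0.0124% of Ensembl-identified genes: newGene_4014, with 2, 101 and 0 counts in saline.

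Counts of single variable loci were spread unevenly over the collagenase libraries, which was not tested. The 25 variable and lambda loci summed to 798, 161 and 469 counts there and to 2, 0 and 0 in saline. newGene_3327 was highest in collagenase replicate 3 (38, 6 and 58 counts), newGene_3356 likewise (16, 4 and 34), while Igkv3-4, the name of newGene_3362, had 46, 0 and 6. newGene_3328 had all of its 43 counts in collagenase replicate 3. Collagenase replicate 2, with the smallest sum, had counts at 15 of the 25, and the other two at 24 each. The median length over the immunoglobulin loci was 382 bases. Of the 14 loci whose text names a variable gene of GENCODE M21, 12 had enough counts for a length and 9 of these lay within 20 bases of the annotated transcript; newGene_3349 came to 365 bases where Igkv6-32 has 366. newGene_7522 was longer, 832 bases where the Iglv1 transcript has 391. The files give identifier numbers and no positions; the 18 kappa loci were numbered 3315 to 3362 and the 10 heavy loci 6226 to 6279, and no other locus with 30 or more counts fell in either run of numbers.

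**Figure D3:**
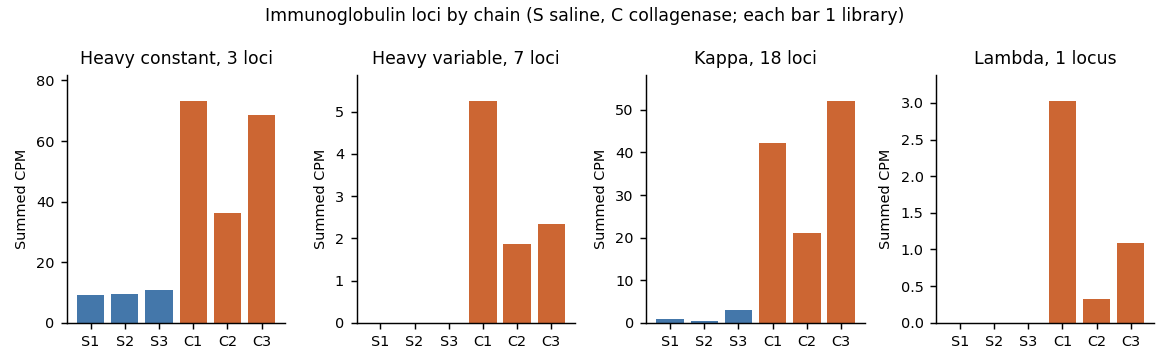
Summed CPM per library of the immunoglobulin loci, 1 panel per chain and 1 bar per library, axes from 0 and of different height. Heavy variable and lambda bars are at 0 in all 3 saline libraries, and the heavy constant bars go from 9.283 to 10.82 CPM in saline to 36.16 to 73.18 CPM after collagenase.

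Markers of lymphocytes with their own rows moved with these loci. Of the B and plasma cell list, 4 of 5 genes had a row, and their summed level was 0.6453 to 1.455 CPM in saline and 5.511 to 10.52 CPM after collagenase. Jchain, the joining chain that plasma cells add to secreted IgM and IgA, rose from 0.6439 ± 0.336 to 7.193 ± 2.221 CPM (SD, n = 3 each; log2 fold change 3.47 ± 0.43 SE, edgeR adjusted p = 0.00735). Cd79a, part of the B-cell receptor, was at 0.2249 ± 0.1206 and 0.5277 ± 0.08493 CPM, short of the threshold (edgeR adjusted p = 0.365). Ms4a1, another B-cell marker, was too low to test. The 4 measured T and NK cell markers, Cd3e, Cd3g, Cd8a and Nkg7, were at 0 in all saline libraries. They summed to 2.799 to 6.911 CPM after collagenase, and all 4 rose. These 4 passed the filter only through the collagenase libraries where they were high, so their calls are a description and no support. The part of these cell types in the immunoglobulin values was not tested. Loci with T-cell receptor text numbered 4. The 2 tested had an unadjusted p under 0.05 and passed neither in edgeR nor in DESeq2: newGene_6848 had 120, 109 and 96 counts in saline and 227, 153 and 165 after collagenase (edgeR adjusted p = 0.207), and newGene_3245 had 61, 49 and 43 against 142, 64 and 105 (edgeR adjusted p = 0.22). Their groups did not overlap, as in 17.6% of all features tested.

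Mobile elements and retroviruses, copies of sequences that once spread through the genome, were the text of 54 loci. Of these, 43 were tested and 1 passed, higher (2.33%). This share is near the 2.12% of all features tested that were higher, so the 1 call says nothing about the class. The locus that passed was newGene_3830, with a domain of the retroviral Gag core protein and a length of 10856 bases. It was at 8.562, 8.116 and 6.658 CPM in saline and at 38.69, 29.73 and 19.67 CPM after collagenase. The groups were well apart, and it rose by 1.92 ± 0.24 on the log2 scale (edgeR adjusted p = 0.00801). Without saline replicate 1 the adjusted p was 0.0511, just over the threshold. newGene_42, a retroviral envelope locus and the most abundant of the class, was at 26.02, 26.41 and 26.57 CPM against 29.97, 32.37 and 26.02 CPM, with overlap (edgeR adjusted p = 0.652). newGene_5582, with the text of the LINE-1 transposon's ORF1 protein, had 7.706, 10.12 and 12.11 CPM against 9.62, 9.06 and 7.23 CPM (edgeR adjusted p = 0.775). newGene_6570, with a Gag p24 domain, was at 2.749, 2.153 and 2.493 CPM against 3.697, 3.71 and 3.11 CPM, short of the threshold (edgeR adjusted p = 0.373). The median of the class was 0.08 on the log2 scale.

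A single locus fell. newGene_1394 carried the text of the protein of Ifi203, a nuclear sensor of the HIN-200 family that interferon induces. It was at 3.019, 2.56 and 1.408 CPM in saline and at 0.6091, 0.4033 and 0.7515 CPM after collagenase. No collagenase library reached the lowest saline library, replicate 3, and the locus fell by 1.98 on the log2 scale (SE 0.38, edgeR adjusted p = 0.0368). Among the 6 fits that left out 1 library, the call remained only without saline replicate 3, and the adjusted p ran from 0.0129 to 0.186. Ifi203, the gene the text names, has its own row, at 6.692 ± 2.209 and 3.144 ± 0.5574 CPM (SD, n = 3 each), with a log2 fold change of -1.09 ± 0.28 (SE) that did not pass (edgeR adjusted p = 0.107). Of the 23 loci with immune text other than immunoglobulin, 16 were tested and newGene_1394 was the 1 that passed (6.25%, against 2.41% of all features tested).

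The remaining 6 loci past the threshold had no annotation text, so only their levels can be described. newGene_6162 had 2, 1 and 1 counts in saline and 30, 26 and 22 after collagenase. This was 0.03449 ± 0.009153 against 0.6331 ± 0.06449 CPM (SD, n = 3 each, log2 fold change 4.05 ± 0.50 SE, edgeR adjusted p = 0.00713). newGene_6162 reached the count minimum and the filter only through the collagenase libraries where it was high. Its call is therefore a description and no support. newGene_4234 was at 2.907, 2.734 and 2.552 CPM against 12.44, 8.173 and 8.992 CPM. It rose by 1.85 ± 0.21 on the log2 scale (edgeR adjusted p = 0.00437) and, alone among these 6, passed in all 6 fits that left out 1 library. newGene_7094 was at 1.374, 1.396 and 1.056 CPM against 5.566, 4.382 and 3.395 CPM, a rise of 1.80 ± 0.26 (edgeR adjusted p = 0.0139). newGene_491, at 2.388, 2.124 and 2.053 CPM against 6.68, 5.995 and 4.535 CPM, rose by 1.39 ± 0.21 (edgeR adjusted p = 0.0166). These 3 loci, of 1260, 1192 and 2560 bases, were each highest in collagenase replicate 1. newGene_6522 was at 0.3154, 0.2618 and 0.3226 CPM against 1.323, 1.936 and 0.8033 CPM (log2 fold change 2.16 ± 0.42 SE, edgeR adjusted p = 0.0368). newGene_5662, the most abundant of the 6, was at 7.39, 6.313 and 7.098 CPM against 18.88, 10.83 and 13.22 CPM, a rise of 1.05 ± 0.21 (edgeR adjusted p = 0.0459).

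Without saline replicate 1, newGene_6162, newGene_6522, newGene_7094, newGene_491 and newGene_5662 missed the threshold. Their highest adjusted p over the 6 fits was 0.0591, 0.173, 0.0778, 0.0844 and 0.176. Collagenase replicate 2 also ended the calls of newGene_6522, newGene_7094, newGene_491 and newGene_5662, collagenase replicate 1 those of newGene_6522, newGene_491 and newGene_5662, saline replicate 2 those of newGene_6522 and newGene_5662, and collagenase replicate 3 that of newGene_5662. Markers of activated phagocytes, the lipid-laden and antigen-presenting state of microglia and macrophages, summed to 56.7 to 59.98 CPM in saline and 468.8 to 1053 CPM after collagenase, and 7 of 8 rose. Of the microglia markers 4 of 8 rose, of the fibroblast and meninges markers 4 of 6 and of the astrocyte markers 2 of 6. Thalamic relay neuron markers summed to 2502 to 3800 CPM and 2503 to 2961 CPM, and 0 of 9 passed in edgeR, 0 at an unadjusted p under 0.05 and 0 in DESeq2. The part of these cells in the levels of the 7 loci without immunoglobulin text that rose was not tested.

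**Figure D4:**
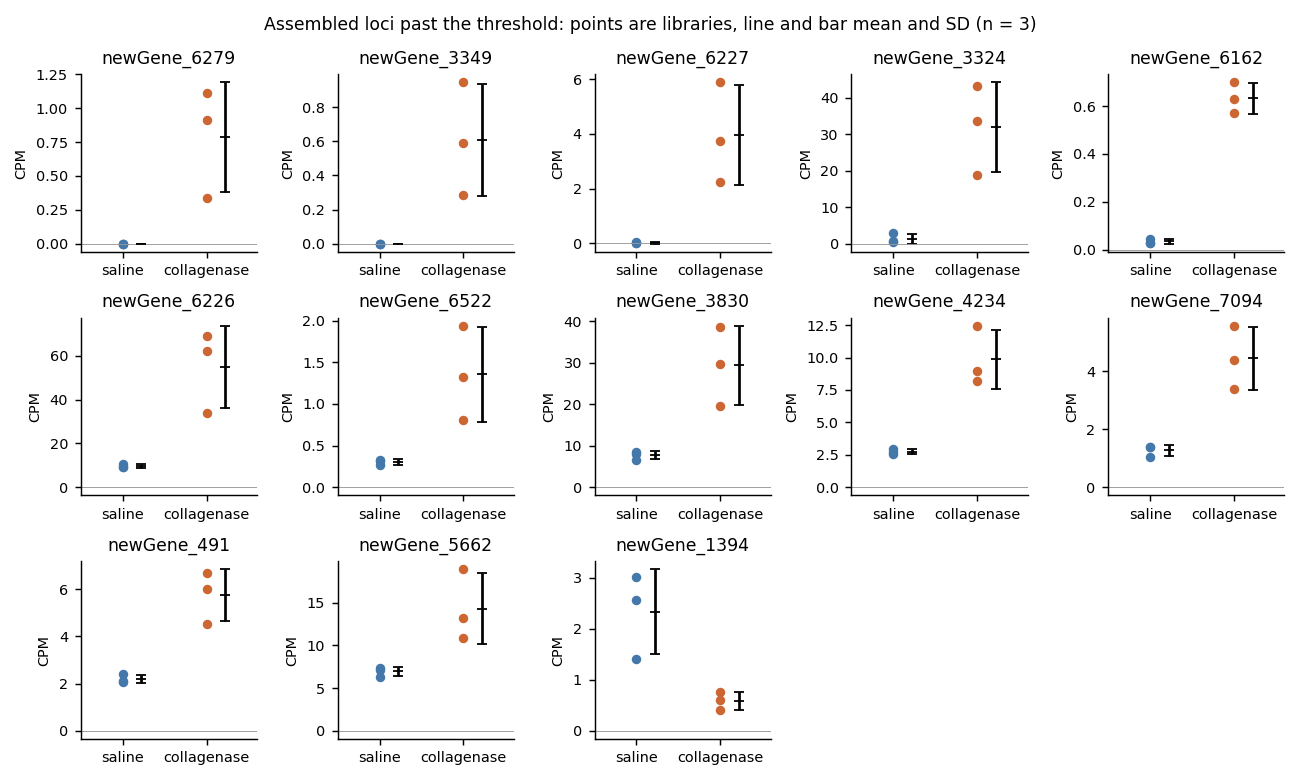
CPM of the 13 loci past an adjusted p of 0.05, 1 panel per locus with its own axis; blue points are the 3 saline and orange points the 3 collagenase libraries, and the bar is mean ± SD. The points of the groups do not overlap in any panel; newGene_1394 is the 1 locus lower after collagenase, at 0.588 ± 0.1751 against 2.329 ± 0.8301 CPM.

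The most abundant loci did not pass. newGene_6190, with an uncharacterised text and a length of 13644 bases, was at 1540, 1705 and 1593 CPM in saline and 1486, 2006 and 1753 CPM after collagenase (edgeR adjusted p = 0.823). This 1 locus held 394299 counts. newGene_6191, the neighbouring number, was at 690.6, 653.2 and 641.3 CPM against 559.9, 603.6 and 649.8 CPM (edgeR adjusted p = 0.718). newGene_1362 had groups that did not overlap, 401.8 to 452.3 CPM against 369.8 to 401.7 CPM, with a log2 fold change of -0.13 ± 0.10 (SE, edgeR adjusted p = 0.694). newGene_763 varied within groups, 124.1 to 235.3 CPM and 184.1 to 275.3 CPM, with saline replicate 3 the lowest. newGene_762, newGene_5372, newGene_6893 and newGene_4094 lay between 109.1 and 364.3 CPM in every library, with adjusted p from 0.72 to 0.961 (edgeR).

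Other classes of text held no call, where 2.41% of all features tested had one. In the zinc finger class, DNA-binding proteins of which many silence transposons, 0 of 34 tested loci passed; newGene_6501, named Zfp934, had the smallest p, at 1.69, 2.24 and 2.522 CPM against 3.76, 4.221 and 2.902 CPM (edgeR adjusted p = 0.237). None of 16 ribosome and translation loci, 3 energy metabolism loci, 12 cytoskeleton loci, 11 neuronal transmission and channel loci, 9 chemosensory loci, 20 kinase and phosphatase loci, 22 ubiquitin loci or 113 uncharacterised loci passed. The leading chemosensory loci by p and by level, newGene_6570 and newGene_5582, are the Gag and LINE-1 loci above and not receptors. Each counted once, these 9 classes held 209 tested loci, of which 9 had an unadjusted p under 0.05 in edgeR and 1 was called by DESeq2. newGene_3942, named Ppp1cc after a catalytic subunit of protein phosphatase 1, had the smallest p in 3 of these classes. It was at 76.56, 70.86 and 78.69 CPM in saline and at 57.76, 62.02 and 59.34 CPM after collagenase, without overlap (log2 fold change -0.34 ± 0.09 SE, edgeR adjusted p = 0.144). It was the 1 locus called by DESeq2 (adjusted p = 0.0304). Ppp1cc itself was at 193.0, 173.7 and 163.7 CPM against 143.1, 141.8 and 151.4 CPM (log2 fold change -0.28 ± 0.10 SE, edgeR adjusted p = 0.276). newGene_3648, named for the glycolytic enzyme Pgam1, was at 154.2, 151.2 and 165.4 CPM against 108.4, 127.2 and 153.1 CPM (edgeR adjusted p = 0.471), and newGene_6798, named for polyubiquitin-B, varied from 85.06 to 153.2 CPM within saline (edgeR adjusted p = 0.934).

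Loci whose symbol column names a gene were set beside that gene where both were tested, which held for 77 loci and 72 genes. newGene_1394 is not among them, since only its Swiss-Prot text names Ifi203. In 76 pairs the locus was lower than the gene, at a median of 3.86% of its CPM; the exception was newGene_2975 beside Cenpp, 0.7451 against 0.6737 CPM. Of these 77 loci, 0 passed in edgeR, 2 had an unadjusted p under 0.05, and DESeq2 called 1. Of the genes 3 passed; the 2 described here were chosen for that reason, after their values were seen. Slc11a1, a metal transporter of phagocytes, was at 2.231, 2.356 and 2.024 CPM in saline and at 17.58, 16.29 and 11.63 CPM after collagenase (log2 fold change 2.78 ± 0.20 SE, edgeR adjusted p = 0.000876). newGene_45, which carries its name, had a log2 fold change of -0.03 ± 0.43 (SE, edgeR adjusted p = 0.99). Il6ra, the interleukin-6 receptor, rose by 0.79 ± 0.16 (edgeR adjusted p = 0.0447), beside 0.11 ± 0.19 for newGene_2908 (edgeR adjusted p = 0.896) at nearly the same level, 6.089 and 5.976 CPM. The differences between a locus and its gene were not tested, and counts of a locus and an overlapping gene cannot be told apart where reads carry no strand.

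**Figure D5:**
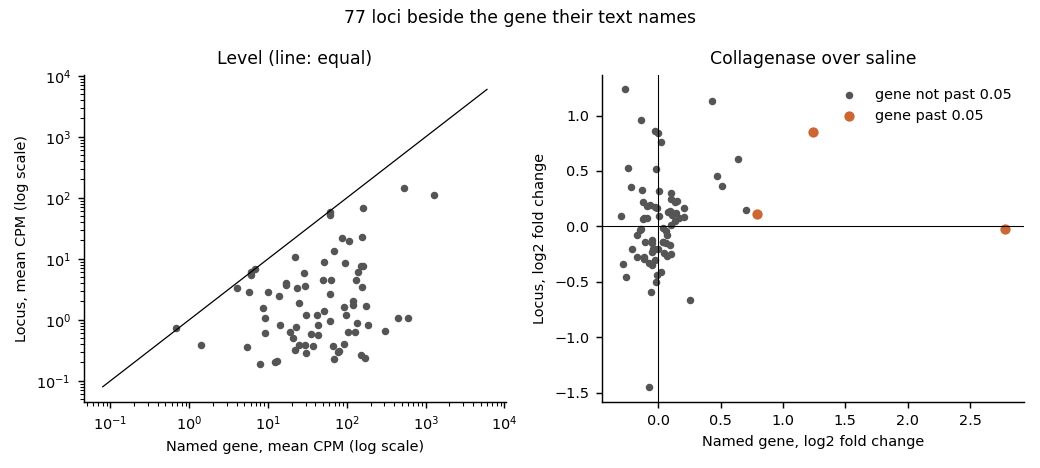
Left: mean CPM of 77 loci against that of the gene each names, on log axes, with the line of equal level; 76 points lie below the line. Right: log2 fold changes, collagenase over saline, of the same pairs; orange marks the 3 genes past an adjusted p of 0.05, whose loci did not pass.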

How the data were processed

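RNA of 3 saline and 3 collagenase libraries was analysed. Per the file headers, the authors deposited read counts and FPKM for every feature of every library. GRCm38, StringTie, HISAT2 2.2.1, DESeq2 and FastQC appear in the submitters' processing notes without their roles. Settings, annotation release and strand mode were not given in the sources used here, and no step of the labels' protocols marks the strand. Groups and replicate numbers came from the sample titles.

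All 26554 features were joined by identifier; 10 to 30 lines per file that continue a broken text cell were skipped, none of them after a new locus. Counts were tested with edgeR 4.0.16 (filterByExpr, TMM scaling, robust quasi-likelihood test, R 4.3.3), Benjamini-Hochberg adjustment over 17240 features, threshold 0.05. CPM is scaled by TMM (factors 0.8978 to 1.063). Library totals of 33603076 to 44815451 counts set the precision, and intervals cover counting error only. Lengths are count over FPKM, calibrated on 1034 genes with 1 transcript. The steps were tested on simulated data. DESeq2 1.42.0 was an alternative. Named loci were those past the threshold without overlap of the groups (12 higher and 1 lower), the 8 most abundant, and the smallest p and highest level in each of 11 text classes; others were chosen after their values were seen. The loci, classes and lists were chosen with earlier results of these data known. Some items are not reported here.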

Additional observations from a re-analysis of the deposited data

Results flagged for a closer look

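The 69 immunoglobulin loci with under 30 counts entered no comparison, and they held 0 counts in the 3 saline libraries and 886 in the 3 collagenase libraries, which is why they are listed here. Collagenase replicates 1, 2 and 3 had 459, 138 and 289 of these counts, at 53, 29 and 46 of the 69 loci. The loci were grouped by their text after values had been seen, and the difference was not tested.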

How the results depend on the processing

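With 3 libraries a group, single libraries moved the calls most. Over the 6 fits that left out 1 library, the number of loci past the threshold ran from 4 to 33, that of loci with KEGG or GO text from 3 to 14, that of loci without it from 1 to 19 and that of immunoglobulin loci, a count added after seeing the data, from 2 to 8. These fits tested 7 to 19 immunoglobulin loci, against 6 with all libraries, since the filter was applied anew. The median log2 fold change ran from -0.049 to 0.021, and the difference in percent of library counts, 0.0549, from 0.0211 to 0.0869. DESeq2 called 24 loci, 14 of them without KEGG or GO text, and kept all 13 calls; the cause was not tested. Size factors by another method, scaling from Ensembl-identified genes alone, no filter on low counts, and minima of 10 or 100 counts each left the number between 11 and 15. The replicate numbers pair nothing in the labels, and same-numbered libraries deviated together with correlations of 0.044, 0.107 and 0.203, so no pairing was used. With the replicate block 13 loci passed, 10 of the 13 among them; the calls of newGene_3349 (adjusted p = 0.0617), newGene_6522 (0.0882) and newGene_1394 (0.0965), the 1 locus that fell, ended; saline replicate 1 correlated better with collagenase replicate 2 (0.076) than with its own number. The block turned newGene_3707 from 0.003 to -0.012 on the log2 scale. No called locus changed direction under any alternative run, but 6 named loci that had not passed did when 1 library was left out: newGene_5372 (-0.139 to 0.095), newGene_4094 (-0.045 to 0.181), newGene_3707 (-0.109 to 0.149), newGene_211 (-0.12 to 0.001), newGene_4844 (-0.213 to 0.149) and newGene_6798 (-0.088 to 0.442). Of 385 refits of the 35 named loci, 331 kept direction and side of the threshold, 37 lost a call, 1 gained one and 16 changed sign. Testing without the filter ended the call of newGene_3324 (0.0968). The filter left 561 loci of 30 to 167 counts untested, by how their counts were spread over libraries as well as by depth.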

Other observations

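Some loci differed more between libraries of 1 group than between the groups. newGene_2033, with the text of prothymosin alpha, an abundant nuclear protein, was at 0, 34.41 and 53.56 CPM in saline and at 3.76, 1.237 and 2.721 CPM after collagenase (edgeR adjusted p = 0.539). Ptma, the gene of that protein, was at 234.0, 262.8 and 329.5 CPM against 272.2, 282.5 and 282.3 CPM, lowest and highest in the same saline libraries as the locus; the relation was not tested. newGene_6581 was at 1.87, 0.1164 and 0.3813 CPM against 0.9032, 10.24 and 13.29 CPM (edgeR adjusted p = 0.379), and newGene_399 at 2.478, 3.52 and 0 CPM against 0.3151, 0.1613 and 0 CPM (edgeR adjusted p = 0.43). In all, 13 tested loci had a fitted change past 2 on the log2 scale and did not pass, 9 of them with no text. Their groups did not overlap in 8 of the 13, against 17.6% of all features tested. The 13 were picked for a large fitted change, which favours such a gap, so the 8 are a description. Of the 13, newGene_2055 had the smallest adjusted p (edgeR, 0.0689), at 0.04506, 0.1164 and 0.08799 CPM against 0.5461, 0.9947 and 0.285 CPM. newGene_2055, newGene_7231 and newGene_7522 passed the filter only through the collagenase libraries where they were high. The same held for newGene_2143, newGene_1223, newGene_3244 and newGene_2241. All of these are among the 8, so their lack of overlap is no support. The loci named here were chosen after their values were seen.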
